A study of Mus musculus with 9 samples.

Results

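The genes described here are 6 repressors of the circadian clock, Per1, Per2, Per3, Cry1, Cry2 and Ciart, chosen by symbol from the 47729 genes of a deposited table of read counts. The cells were C2C12, an established mouse myoblast line whose cells fuse into myotubes when serum is reduced. One population had received a non-targeting guide RNA (WT), one was made with CRISPR-Cas9 against Per1 (Per1KO) and one with CRISPR-Cas9 against Per2 (Per2KO). Each gave 1 library in growth medium with fetal bovine serum (day 0), 1 after 3 days and 1 after 5 days in horse serum, 9 libraries in all. The guides, the edited alleles, whether a population is 1 clone, and the clock phase or hour of harvest are not given in the sources used here. The question is how the remaining repressors behave where Per1 or Per2 is targeted.

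The mammalian clock is a transcriptional feedback loop. The activators CLOCK and BMAL1 (the product of Arntl) bind E-box sequences and switch on the Per and Cry genes, whose proteins enter the nucleus as complexes and shut the activators down. PER1 and PER2 are the scaffolds of these complexes, and PER3 has a lesser role in the loop. CRY1 and CRY2 bind the activators directly and are the stronger repressors. Ciart, also called Chrono, encodes a further repressor that binds BMAL1. D-boxes, bound by the factors DBP, TEF, HLF and NFIL3, give the same genes a second clock input, and Per1 also answers to cAMP and glucocorticoid signals.

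All 6 genes are protein-coding. In the GRCm38 annotation, Per1 (ENSMUSG00000020893) lies at chr11:69095217-69109960 on the plus strand, and the other 5 lie on minus strands. Per2 (ENSMUSG00000055866) is at chr1:91415982-91459324 and Per3 (ENSMUSG00000028957) at chr4:151003652-151044665. Cry1 (ENSMUSG00000020038) is at chr10:85131700-85185064, Cry2 (ENSMUSG00000068742) at chr2:92403646-92434043 and Ciart (ENSMUSG00000038550) at chr3:95878503-95882251. Of the 31-base words in the longest transcript, the share found in other genes too was 0% for Per1, Per2 and Cry1, 0.117% for Per3 and 3.56% for Cry2. It was 25.5% for Ciart, all of it with the processed pseudogene Gm9176, which was not analysed here, so the counts of Ciart are uncertain. Cry2 also overlaps exons of D930015M05Rik on the opposite strand, and whether counting used strand is not given in the sources used here.

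Promoter sequences were searched for the letters of known clock elements. RefSeq promoters on GRCm38.p6 were matched for 5 of the 6 genes, Per2 being the one without an entry. The 250 bases upstream of each start were searched on both strands for the E-box CACGTG, the E-prime box CACGTT, the D-box TTATGTAA, the CRE core TGACGT and the ROR core TAGGTCA. Of these, only the E-box is its own reverse complement, and none of the matches below overlap. Shown 5′ to 3′, with every match in capitals, are Cry2, which passed against WT in both knockouts, and Ciart, Per1 and Per3, which had the smallest unadjusted p-values for a response unlike that of WT.
Ciart, chr3:95882229-95882478, minus strand: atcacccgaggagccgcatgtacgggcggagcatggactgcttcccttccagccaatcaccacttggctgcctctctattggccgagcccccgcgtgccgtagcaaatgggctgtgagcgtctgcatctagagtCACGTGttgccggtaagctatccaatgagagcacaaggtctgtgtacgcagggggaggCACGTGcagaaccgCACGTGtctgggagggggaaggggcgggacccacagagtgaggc
Per3, chr4:151044666-151044915, minus strand: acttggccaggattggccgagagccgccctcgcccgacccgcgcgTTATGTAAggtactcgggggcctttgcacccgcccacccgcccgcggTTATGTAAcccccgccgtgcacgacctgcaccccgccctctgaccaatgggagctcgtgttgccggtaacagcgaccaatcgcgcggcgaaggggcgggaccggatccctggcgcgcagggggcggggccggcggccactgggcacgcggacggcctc
Per1, chr11:69098699-69098948, plus strand: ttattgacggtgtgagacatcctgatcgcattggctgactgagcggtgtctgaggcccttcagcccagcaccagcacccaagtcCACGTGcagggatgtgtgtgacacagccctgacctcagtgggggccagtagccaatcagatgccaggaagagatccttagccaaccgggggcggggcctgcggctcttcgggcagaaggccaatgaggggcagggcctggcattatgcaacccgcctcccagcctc
Cry2, chr2:92434070-92434319, minus strand: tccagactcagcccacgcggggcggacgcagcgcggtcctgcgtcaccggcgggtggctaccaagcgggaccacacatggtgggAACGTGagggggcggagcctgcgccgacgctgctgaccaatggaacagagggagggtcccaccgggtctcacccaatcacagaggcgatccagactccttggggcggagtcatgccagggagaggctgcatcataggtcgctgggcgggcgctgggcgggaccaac
Ciart held 3 E-boxes, starting 116, 58 and 44 bases upstream of its start. Of 32851 promoters of the same length, 6.02% held at least 1 E-box and 0.0609% held 3 or more. Per3 held no E-box but 2 D-boxes, 205 and 158 bases upstream, where 0.819% of promoters held at least 1 D-box and 0.0183% held 2 or more. The upstream start of Per1 had 1 E-box 166 bases before it, and its other start had 1 CRE core 132 bases before it, a match found in 6.47% of promoters. Cry2 held 1 E-prime box, on the reverse strand, as 3.85% of promoters do. Cry1, not shown, held 1 E-box and 1 E-prime box. A match is a description of letters and not of binding, and binding was not measured.

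The libraries differ in depth along the same line as the genotypes. The WT libraries held 5020385 to 6773320 counts and the knockout libraries 41997763 to 48051824, 7.82 times as many on average, and only the WT titles carry a lane suffix. A difference from WT therefore cannot be told apart from one in depth or sequencing lane. Levels are given as CPM, the usual library-scaled read count, here after TMM scaling for library composition, with exact Clopper-Pearson 95% intervals that cover counting error only. A count of 0 would allow 3 counts, 0.443 to 0.598 CPM in WT libraries before scaling. The labels name the tissue as whole muscle, but defining markers of other cells of muscle were at or near 0. Adgre1 and Adipoq had 0 counts in all libraries, and Pecam1 reached at most 0.0787 CPM and Cdh5 0.157 CPM. Of the muscle lineage markers, Des ranged from 1247 to 4347 CPM and Myod1 from 58.7 to 165 CPM. The summed level of the 7 muscle lineage markers ran from 3041 to 14000 CPM in WT, from 1773 to 10498 CPM in Per1KO and from 1452 to 8826 CPM in Per2KO, and its part in the differences below was not tested. On day 0, Myog, the myogenin gene that marks the start of differentiation, was at 124 CPM in WT, 5.35 CPM in Per1KO and 2.91 CPM in Per2KO, so the day 0 populations also differed in myogenic genes. The tendon and fibroblast markers Scx, Pdgfra and Dcn were present in all libraries, with Tnmd at most 0.244 CPM. In such bulk RNA, fewer cells of a type and less RNA per cell cannot be told apart.

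Levels of different genes were compared only per length, as counts per kilobase of the longest transcript, scaled to the same sum in each library. On this scale Per1 had a median of 17.4 over the 9 libraries (range 9.81 to 21.99) and Cry1 of 17.0 (14.0 to 24.3). Cry2 followed with 12.2 (8.83 to 32.7), Per3 with 7.92 (3.32 to 10.4), Ciart with 4.41 (1.97 to 15.3) and Per2 with 4.37 (1.67 to 8.78). The ranges of all neighbours in this order overlap, whereas the range of Cry1 lay wholly above those of Per3 and Per2. Those of Per1 and Cry2 also lay wholly above that of Per2. Among the Per genes the order was the same in all 9 libraries, Per1 above Per3 above Per2. Ciart moved most in rank: it was the highest of the 6 genes in Per2KO on day 0 and the lowest in both knockouts on days 3 and 5.

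Per1, the target in Per1KO, was still transcribed there. Per1 in the WT libraries of days 0, 3 and 5 had 35.6 (31.3 to 40.3), 33.8 and 31.01 CPM. Per1 in the Per1KO libraries of days 0, 3 and 5 had 20.9 (19.6 to 22.2), 32.4 and 28.9 CPM. Per1 in the Per2KO libraries of days 0, 3 and 5 had 16.5 (15.4 to 17.6), 30.4 and 32.9 CPM. The day 0 libraries of both knockouts therefore lay below WT, at 0.586 and 0.462 times its level, while on days 3 and 5 all 4 counting intervals of the ratio to WT included 1. On day 0 Per1 in the population where it was targeted was 1.27 times its level where Per2 was (1.16 to 1.39). On day 3 this ratio was 1.07, with an interval that included 1 (0.992 to 1.145), and on day 5 it was 0.879 (0.813 to 0.951). Counts over a whole gene do not show its edited alleles, so they do not check the labels.

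Per2, the other target, was the least abundant Per gene per length. Per2 in the WT libraries of days 0, 3 and 5 had 9.74 (7.58 to 12.3), 11.5 and 20.5 CPM. Per2 in the Per1KO libraries had 6.59 (5.89 to 7.35), 9.44 and 10.6 CPM, and in those of Per2KO 3.504 (3.01 to 4.06), 9.13 and 8.38 CPM. All 6 knockout libraries were below the WT library of their day, 4 of them with an interval of the ratio below 1. The ratio to WT was smallest in Per2KO on day 0 (0.360, 0.271 to 0.482) and largest in Per1KO on day 3 (0.821, 0.630 to 1.09).

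Per3 was not targeted, and its day 0 values repeat the picture of Per1. Per3 in the WT libraries of days 0, 3 and 5 had 21.6 (18.3 to 25.3), 15.7 and 22.9 CPM. Per3 in the Per1KO libraries of days 0, 3 and 5 had 12.1 (11.1 to 13.1), 20.2 and 21.98 CPM. Per3 in the Per2KO libraries of days 0, 3 and 5 had 7.17 (6.45 to 7.94), 17.5 and 17.9 CPM. On day 0 the ratio to WT was 0.559 (0.468 to 0.673) for Per1KO and 0.332 (0.274 to 0.403) for Per2KO. On day 3 both knockouts were above WT, at 1.29 (1.03 to 1.63) and 1.12 times its level (0.894 to 1.41). On day 5 the ratio was 0.961 (0.784 to 1.19) for Per1KO and 0.781 (0.635 to 0.968) for Per2KO, so the direction differed between days.

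Cry1 had the smallest spread of the 6 over the 9 libraries, with an SD of log2 CPM of 0.292 where Ciart had 1.02. Cry1 in WT had 16.2, 19.7 and 19.1 CPM on days 0, 3 and 5. The Per1KO libraries had 18.8, 21.7 and 29.02 CPM, and those of Per2KO had 15.3, 22.9 and 27.2 CPM on the same days. Only on day 5 did the intervals of the ratio to WT leave out 1, at 1.52 (1.22 to 1.91) for Per1KO and 1.42 (1.14 to 1.79) for Per2KO. Cry1 was thus the only one of the 6 genes to be higher than WT in most pairs, 5 of 6.

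Cry2, the paralogue of Cry1, was below WT in both knockouts on every day. Cry2 in the WT libraries of days 0, 3 and 5 had 19.8 (16.6 to 23.3), 28.1 (23.8 to 32.9) and 51.9 (45.5 to 59.0) CPM. Cry2 in the Per1KO libraries of days 0, 3 and 5 had 12.8 (11.9 to 13.9), 17.5 and 20.6 (19.2 to 21.99) CPM. Cry2 in the Per2KO libraries of days 0, 3 and 5 had 15.3 (14.3 to 16.4), 16.1 and 18.6 (17.3 to 19.9) CPM. All 6 knockout libraries were below the WT library of their day, each with an interval of the ratio below 1. The gap was widest on day 5, where the ratio to WT was 0.396 in Per1KO and 0.358 in Per2KO, against 0.649 and 0.775 on day 0.

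Ciart was higher on later days in WT and lower on later days in both knockouts. Ciart in the WT libraries of days 0, 3 and 5 had 2.97 (1.84 to 4.53, 21 counts), 6.02 (4.14 to 8.46) and 11.9 (8.92 to 15.5, 54 counts) CPM. Ciart in the Per1KO libraries of days 0, 3 and 5 had 4.44 (3.87 to 5.07), 2.53 and 1.63 (1.27 to 2.07) CPM. Ciart in the Per2KO libraries of days 0, 3 and 5 had 10.1 (9.21 to 11.0), 2.07 and 1.46 (1.12 to 1.88) CPM. On day 0 the level in Per2KO was 3.39 times that in WT (2.20 to 5.53), and in Per1KO 1.498 times (0.956 to 2.47). By day 5 the order had turned, with ratios to WT of 0.138 (0.0948 to 0.200) for Per1KO and 0.123 (0.0838 to 0.181) for Per2KO. The 25.5% of sequence shared with Gm9176 and the low WT counts bear on these values, and their part was not tested.

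**Figure D1:**
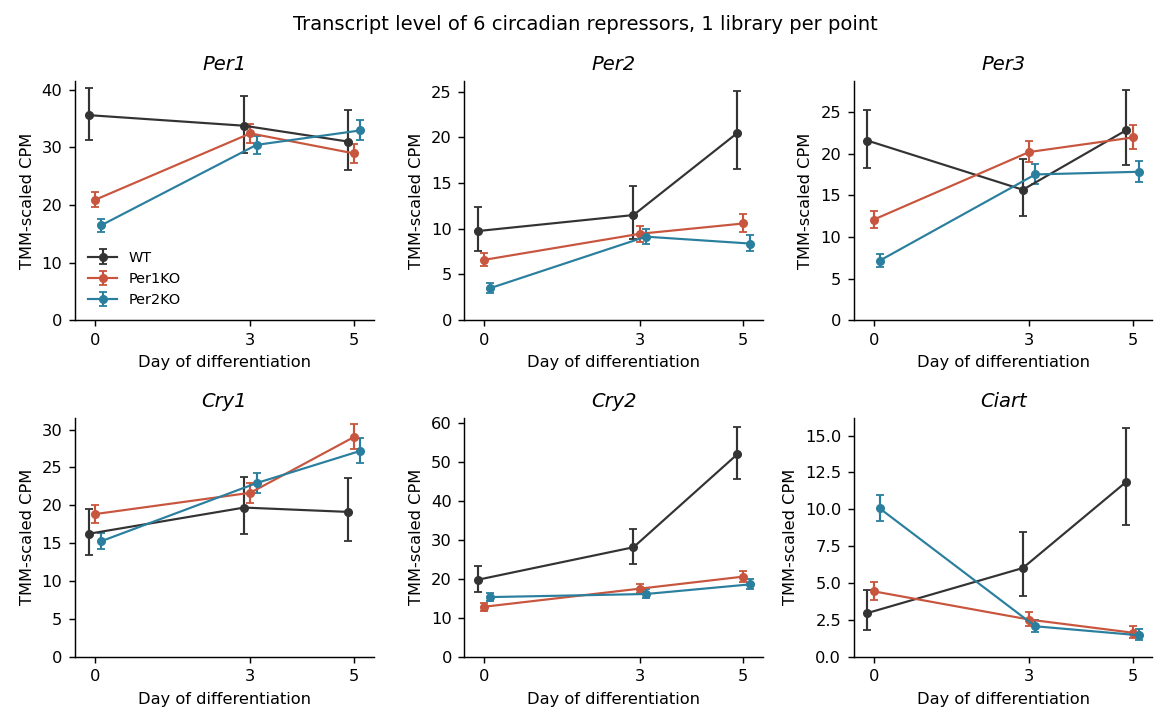
TMM-scaled CPM (y axis, linear from 0) of each gene against day of differentiation (x axis), with 1 library per point and bars showing the exact 95% counting interval. WT is in dark grey, Per1KO in red and Per2KO in blue: Per1 and Per3 are lower than WT in both knockouts on day 0 and closer to WT on days 3 and 5, Cry2 stays below WT, and Ciart goes from 2.97 to 11.9 CPM in WT and ends at 1.63 and 1.46 CPM in the knockouts.

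To ask which repressors differed from WT over all days, each knockout was compared with WT in edgeR's quasi-likelihood test, in a model with genotype and day, so that the 3 days take the place of replicates. In Per1KO, 1 of the 6 genes passed at a Benjamini-Hochberg adjusted p-value under 0.05, where 19.3% of the 13324 genes tested did. That gene was Cry2, lower by a log2 fold change of -0.91 ± 0.21 (SE), with an adjusted p-value of 0.0211, and lower on 3 of 3 days. In Per2KO, 2 of 6 passed against a background of 19.9%: Per2 at -1.02 ± 0.24 (adjusted p-value 0.0230) and Cry2 at -0.90 ± 0.21 (0.0214), both lower on all days. Genes called higher were 9.26% and 9.31% of the table and genes called lower 10.1% and 10.6%, so with 6 genes about 1 call would match the background. Both comparisons use the same WT libraries and are not independent of each other.

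The other members did not pass. Per1 had log2 fold changes of -0.34 ± 0.22 in Per1KO and -0.40 ± 0.22 in Per2KO (edgeR adjusted p-values 0.310 and 0.232), and Per2 had -0.62 ± 0.24 in Per1KO (0.111). Per3 had -0.23 ± 0.29 and -0.62 ± 0.30 (0.611 and 0.179), and Cry1 had 0.31 ± 0.15 and 0.21 ± 0.15 (0.195 and 0.377). Ciart had -1.46 ± 0.78 and -1.03 ± 0.79 (0.227 and 0.395), the largest standard errors of the 6, and its day 0 and day 5 differences have opposite signs. Over the 6 genes the median log2 fold change was -0.48 in Per1KO and -0.76 in Per2KO, where the medians of all genes tested were -0.02 and -0.01.

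Single days weigh on these calls, as on the number of all genes called. In Per1KO, 2575 of 13324 genes passed in the main fit, 890 of 12984 without day 3 and 685 of 12943 without day 5. In Per2KO these counts were 2652, 807 and 753. In the fits without day 0, 2640 genes passed in Per1KO and 2968 in Per2KO, of 12920. The Cry2 call in Per1KO was lost without day 3 (-1.03, adjusted p-value 0.111) and without day 5 (-0.66, 0.156). In Per2KO the Cry2 call was lost without day 3 (-0.95, 0.137) and without day 5 (-0.59, 0.182). The Per2 call in Per2KO was lost without day 0 (-0.84, 0.0668) and without day 5 (-0.88, 0.209). With day 0 left out, Ciart passed in both knockouts, at -2.104 in Per1KO (0.0265) and -2.34 in Per2KO (0.0190).

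**Figure D2:**
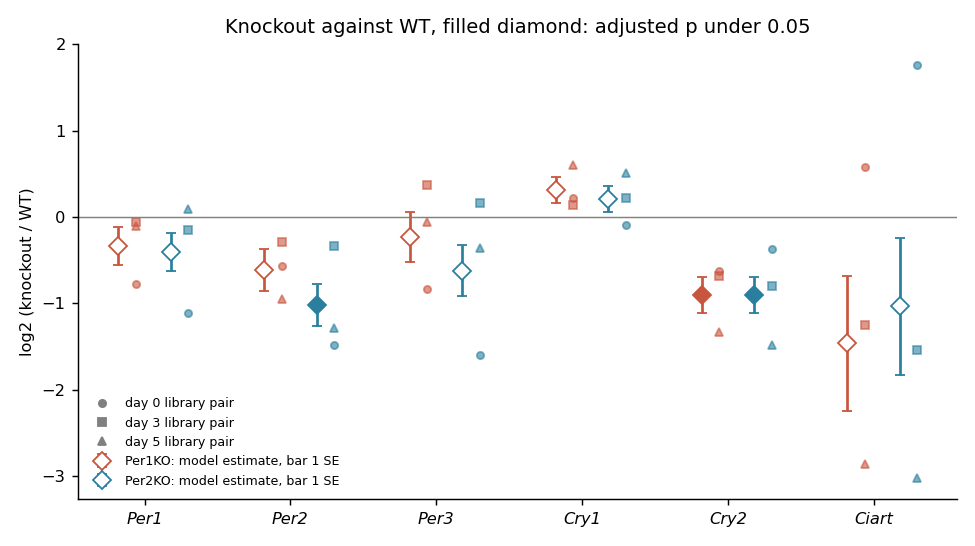
Log2 ratio of knockout to WT (y axis) for each gene (x axis), in red for Per1KO and blue for Per2KO: diamonds are the estimates over the 3 days with bars of 1 SE, filled where the adjusted p-value is under 0.05, and small circles, squares and triangles are the library pairs of days 0, 3 and 5. The filled diamonds are Cry2 in both knockouts and Per2 in Per2KO, and the Ciart pairs of day 0 lie above 0 while those of days 3 and 5 lie below.

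The 2 knockouts, whose libraries have like depths, were then compared with each other. None of the 6 genes passed, as for the whole table (0 of 13324 genes, 0%, by edgeR; 88 genes but none of the 6 at an unadjusted p-value under 0.05; 1 gene by the DESeq2 Wald test, and none of the 6). The log2 difference of Per1KO from Per2KO was 0.41 ± 0.23 for Per2, 0.39 ± 0.28 for Per3 and 0.07 ± 0.21 for Per1. It was 0.10 ± 0.15 for Cry1, -0.01 ± 0.20 for Cry2 and -0.43 ± 0.69 for Ciart. Per2 and Per3 were higher in Per1KO than in Per2KO on 3 of 3 days. The largest gaps in single pairs were on day 0, where Per1KO had 1.88 times the Per2 level of Per2KO (1.56 to 2.27), 1.69 times its Per3 level (1.48 to 1.93) and 0.442 times its Ciart level (0.375 to 0.518). On day 3 the ratios were nearer to 1, at 1.03 for Per2 (0.905 to 1.18), 1.15 for Per3 (1.05 to 1.27) and 1.22 for Ciart (0.929 to 1.61).

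To ask how the repressors change as myoblasts differentiate, days were compared in the same model, with the 3 populations standing in for replicates of a day. On day 3 against day 0, 1 of the 6 genes passed, where 35% of genes did (18.1% higher, 16.9% lower): Per2 rose by a log2 fold change of 0.75 ± 0.24 (edgeR adjusted p-value 0.0408). On day 5 against day 0, 3 of 6 passed, against a background of 46.1% (23.2% higher, 22.9% lower). Per2 rose by 0.99 ± 0.24 (0.0108), Cry2 by 0.76 ± 0.21 (0.0176) and Cry1 by 0.59 ± 0.15 (0.0142). Per3 had 0.75 ± 0.29 (0.0680), Per1 0.44 ± 0.22 (0.131) and Ciart -1.11 ± 0.76 (0.264). Between days 5 and 3 none of the 6 passed, nor did any at an unadjusted p-value under 0.05 or by DESeq2, where 1.79% of all genes passed by edgeR (0.698% higher, 1.09% lower). Leaving out Per1KO ended all 4 of these calls, and leaving out Per2KO ended all but that of Cry2 on day 5 (1.03). Fewer of all genes passed in those fits too. On day 3, 1091 of 13034 genes passed without Per1KO and 1381 of 13021 without Per2KO, against 4664 of 13324 in the main fit. On day 5 these counts were 2259, 2895 and 6149. The folds of the members kept their sign: without Per1KO they were 0.88 for Per2 on day 3, and 1.16 for Per2, 0.82 for Cry2 and 0.56 for Cry1 on day 5. Without Per2KO they were 0.40 for Per2 on day 3, and 0.87 for Per2 and 0.45 for Cry1 on day 5.

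In the 6 deeply sequenced knockout libraries alone, more of the members passed. On day 5 against day 0 all 6 did, where 64.6% of 12905 genes did (32.3% higher, 32.4% lower). Per3 rose by 1.07 ± 0.16 (edgeR adjusted p-value 0.00127), Per2 by 0.94 ± 0.22 (0.00913), Per1 by 0.73 ± 0.14 (0.00407), Cry1 by 0.72 ± 0.12 (0.00228) and Cry2 by 0.47 ± 0.13 (0.0209). Ciart was the one that fell, by 2.17 ± 0.39 on the log2 scale (adjusted p-value 0.00305). On day 3, 5 of 6 passed against a background of 58% (29.2% higher, 28.7% lower), with Cry2 at 0.25 ± 0.13 (0.155) as the exception. Between days 5 and 3 none of the 6 passed by edgeR, and Cry1 alone had an unadjusted p-value under 0.05 (0.0297), where 10.5% of genes passed (5.56% higher, 4.94% lower). DESeq2 was not run on these 6 libraries. The WT libraries cannot be tested on their own, having 1 library per day.

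Within WT the single pairs gave another order of changes. Ciart on day 5 was 4.004 times its day 0 level (2.38 to 6.98), Cry2 2.62 times (2.12 to 3.26) and Per2 2.099 times (1.52 to 2.91). Per1, Per3 and Cry1 had intervals that included 1, at 0.871 (0.704 to 1.07), 1.06 (0.817 to 1.37) and 1.18 (0.881 to 1.57). In the knockouts the same ratio for Ciart was 0.368 (0.276 to 0.485) for Per1KO and 0.145 (0.109 to 0.190) for Per2KO. For Per1 it was 1.39 in Per1KO (1.28 to 1.51) and 2.001 in Per2KO (1.83 to 2.18), and for Per3 it was 1.82 and 2.49.

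**Figure D3:**
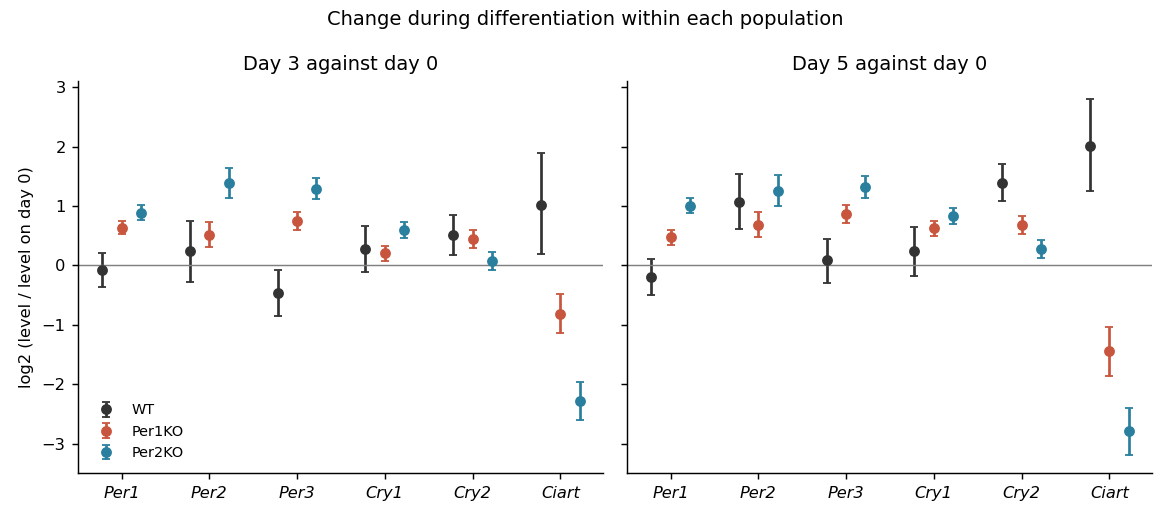
Log2 ratio of the level on day 3 (left) or day 5 (right) to that on day 0 (y axis) for each gene (x axis), with 1 pair of libraries per point and exact 95% counting intervals. WT is in dark grey, Per1KO in red and Per2KO in blue: the Ciart points of WT lie above 0 and those of both knockouts below, and on day 5 the WT point of Cry2 is the highest of its 3.

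Whether this response differs from that of WT was asked with an interaction term between genotype and stage, day 0 against days 3 and 5 together, with 3 residual degrees of freedom. None of the 6 genes passed in either knockout, as for the whole table (0 of 13324 genes, 0%, by edgeR). At an unadjusted p-value under 0.05 there were 1426 genes in Per1KO and 1783 in Per2KO, and DESeq2 called 248 and 476. Of the 6 genes, 3 had an unadjusted p-value under 0.05 in each knockout, Ciart, Per1 and Per3. The Ciart interaction was -2.67 ± 0.75 in Per1KO (edgeR unadjusted p-value 0.0113, adjusted 0.351) and -4.08 ± 0.75 in Per2KO (0.00150, adjusted 0.136). For Per3 it was 0.97 ± 0.36 in Per1KO (0.0359, adjusted 0.445) and 1.47 ± 0.37 in Per2KO (0.00662, adjusted 0.199). For Per1 it was 0.69 ± 0.26 (0.0355, adjusted 0.445) and 1.08 ± 0.26 (0.00550, adjusted 0.189). In Per2KO, DESeq2 called Ciart (-4.11, adjusted p-value 2.76e-04) and Per3 (1.46, 0.0443), and in Per1KO it called none of the 6. Without a filter on low counts edgeR called Ciart in both knockouts and Per3 in Per2KO. In that fit 315 of 26159 genes passed in Per1KO and 567 in Per2KO.

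Ratios between members of 1 library do not depend on how libraries are scaled. The ratio of Cry1 to Cry2 per length was 1.08, 0.921 and 0.484 in WT on days 0, 3 and 5. In Per1KO it was 1.93, 1.63 and 1.85, and in Per2KO 1.31, 1.87 and 1.92. All 6 knockout libraries were thus above all 3 WT libraries, and how often other gene pairs part this way was not tested. The ratio of Per2 to Per1 was 0.219, 0.273 and 0.528 in WT, 0.253, 0.233 and 0.292 in Per1KO, and 0.171, 0.240 and 0.204 in Per2KO. On day 0 WT lay between the knockouts, on days 3 and 5 it was above both, and over all days the ranges of WT and the knockouts overlapped. The summed Per genes were 1.25, 0.870 and 0.720 times the summed Cry genes in WT on days 0, 3 and 5, a value that was lower on each later day. In Per1KO it was 0.805, 1.03 and 0.791 and in Per2KO 0.598, 0.946 and 0.840, lowest on day 0 in the latter.

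As a share of the 6 genes per length, Ciart made up 6.18%, 10.9% and 15.5% in WT on days 0, 3 and 5. It made up 11.8%, 5.26% and 3.09% in Per1KO and 26.7%, 4.50% and 2.91% in Per2KO. Cry1 held 16.0% to 22.9% of the 6 in WT and 26.0% to 35.2% in the knockouts. Such a share also moves with the levels of the other genes. The Cry1 level itself in Per2KO on day 0 was 0.939 times that of WT (0.771 to 1.15). Cry2 went from 20.1% on day 0 to 33.1% on day 5 in WT and stayed between 16.7% and 19.9% in the knockouts.

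**Figure D4:**
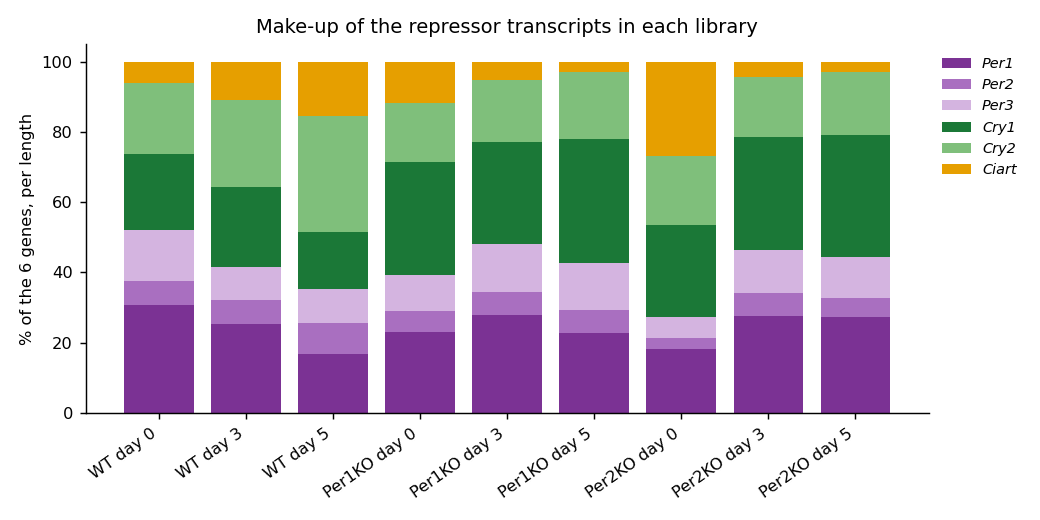
Share of each gene in the summed per-length level of the 6 genes (y axis, percent) in each of the 9 libraries (x axis). Stacked bars are, from the bottom, Per1, Per2, Per3, Cry1, Cry2 and Ciart: the Ciart segment grows with day in WT to 15.5% and shrinks in Per2KO from 26.7% to 2.91%.

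The rest of the clock was read from lists of its other genes. Of the 3 activators, 2 passed in Per1KO against WT (19.3% of all genes did, 10.1% lower), both lower: Arntl at -1.04 ± 0.28 (edgeR adjusted p-value 0.0363) and Npas2, a stand-in for CLOCK, at -1.45 ± 0.29 (0.0112). None passed in Per2KO, where 1 had an unadjusted p-value under 0.05. Arntl was at 26.8, 34.1 and 38.0 CPM in WT on days 0, 3 and 5. It was at 21.5, 15.3 and 13.0 CPM in Per1KO and at 35.95, 20.1 and 16.6 CPM in Per2KO. It was thus higher on later days in WT and lower in both knockouts, as Ciart was. Its interaction of genotype and stage did not pass, at -1.03 in Per1KO and -1.40 in Per2KO (edgeR adjusted p-values 0.374 and 0.174). The nuclear receptor gene Nr1d1 ran the same way. On days 0, 3 and 5 it had 68.1, 85.9 and 90.8 CPM in WT, 68.8, 58.5 and 46.4 in Per1KO and 63.0, 50.3 and 49.2 in Per2KO. The Nr1d1 interaction did not pass either, at -0.77 in Per1KO and -0.72 in Per2KO (edgeR adjusted p-values 0.426 and 0.335).

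Of the 5 clock nuclear receptors, 4 were tested, and Nr1d2, which encodes the repressor REV-ERB beta, was the 1 that passed against WT. It was higher in both knockouts, by 0.52 ± 0.12 in Per1KO (edgeR adjusted p-value 0.0216) and by 0.42 ± 0.12 in Per2KO (0.0444). Of all genes, 9.26% in Per1KO and 9.31% in Per2KO were called higher. Of the 6 output factors, 2 passed in Per1KO and 1 in Per2KO, all lower, where 10.1% and 10.6% of all genes were called lower. Bhlhe40, encoding the E-box repressor DEC1, was at -0.92 ± 0.14 (0.00316) and -1.03 ± 0.14 (0.00194), and Nfil3, a D-box repressor, at -1.77 ± 0.48 in Per1KO (0.0392). On day 5 against day 0, 3 of the 6 rose, where 23.2% of all genes did: Bhlhe40 (1.17), Bhlhe41 (1.56) and Tef (1.55). The D-box activator Dbp did not pass against WT, at -0.29 ± 0.21 (0.356) and -0.60 ± 0.21 (0.0778).

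Against WT, 19.3% of all genes passed in Per1KO (10.1% lower) and 19.9% in Per2KO (10.6% lower). Of 10 genes whose products act on clock proteins or bind them, 1 passed in each knockout. This was Usp2, a deubiquitinase of clock proteins, lower by -0.88 ± 0.17 in Per1KO (edgeR adjusted p-value 0.0107) and -0.77 ± 0.17 in Per2KO (0.0180). The kinases Csnk1d and Csnk1e and the ligase subunit Btrc did not pass against WT. On day 5 against day 0, 4 of the 10 rose and 1 fell, where 23.2% of all genes rose and 22.9% fell. Usp2 rose by 3.50 ± 0.18 (1.16e-05), from 5.37 to 45.3 CPM in WT, Cipc, a CLOCK-binding repressor, by 0.79, and Btrc, which marks PER for degradation, by 0.57. Timeless, which also acts in DNA replication, fell by 2.77.

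Genes with the most similar pattern were those with the smallest root mean square difference of centred log2 CPM over the 9 libraries, among 10194 protein-coding genes averaging 5 CPM or more. All members share the depth split between WT and knockouts with these genes. Nearest to Ciart was Emb, encoding the cell surface protein embigin, with a difference of 0.318, where the median candidate had 1.08. Emb was at 14.6, 19.9 and 34.5 CPM in WT on days 0, 3 and 5, at 21.4, 8.61 and 7.06 CPM in Per1KO and at 23.9, 7.47 and 6.04 CPM in Per2KO. Next to it was Slc1a4, an amino acid transporter, with 0.387. Nearest to Per1 was Kremen1 (0.0842, median candidate 0.466), to Per2 the transcription factor Runx1 (0.184, median 0.701), and to Per3 the acetyl-CoA synthetase Acss2 (0.172, median 0.590). Nearest to Cry1 was the heterochromatin protein gene Cbx5 (0.0542, median 0.432) and to Cry2 the zinc finger gene Zfp282 (0.149, median 0.641).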

How the data were processed

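RNA was measured by sequencing of poly(A)-selected TruSeq libraries of C2C12 cells, with single reads, per the labels' protocols. The authors deposited raw read counts per Ensembl gene, which were used unchanged. The submitters' processing notes name CASAVA 1.8, HISAT2 2.1.0 and the build mm10, with no role for each. The counting program, annotation and use of strand are not given in the sources used here. Symbols matched 47224 of 47729 genes, and 0 lines named no gene. Positions and lengths came from GENCODE M21 (GRCm38), promoters from RefSeq.

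Genes with at least 1 CPM in 3 libraries were tested (13324, all 6 members among them) with edgeR 4.0.16 (R 4.3.3, limma 3.58.1), robust quasi-likelihood, TMM scaling and a threshold of 0.05 after Benjamini-Hochberg adjustment over all genes. The additive model has 4 residual degrees of freedom. Nothing in the sources used here says that libraries came from separate cultures, so p-values measure only the spread among these libraries. SEs were derived from the fold change and its F statistic. Ratios of 2 libraries carry exact conditional binomial 95% intervals. Log2 CPM used a prior count of 2. The fit was tested on simulated data. DESeq2 1.42.0 was an alternative. The members and lists were chosen with earlier results of these data known. All 6 members are named, and list genes mainly where they passed, with others named after their values were seen. The 3 most similar genes per member were found, and the text names the nearest of each and the second for Ciart. The values of 1 list gene that is counted are not reported here.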

Additional observations from a re-analysis of the deposited data

Results flagged for a closer look

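The responses of Ciart and Per1 to differentiation ran in opposite directions in WT and in the knockouts on both later days. For Ciart the WT libraries of days 3 and 5 were above day 0 and those of both knockouts below, with counting intervals of the ratio that left out 1 in each of the 6 pairs. The interaction was -2.67 in Per1KO and -4.08 in Per2KO on the log2 scale, neither past the threshold after edgeR's adjustment. For Per1 the WT libraries of days 3 and 5 were below day 0, at 0.948 and 0.871 times its level with intervals that include 1, and those of both knockouts above. Its interaction was 0.692 in Per1KO and 1.08 in Per2KO, again not past the threshold.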

How the results depend on the processing

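Depth limits the WT values: Ciart had 21 to 54 counts in its WT libraries, and Ciart could not be tested with a minimum of 10 CPM. RLE scaling, factors from protein-coding genes and dispersions without robust estimation changed no count of members called. Main counts were 1 for Per1KO against WT and 2 for Per2KO. For Per1KO the count was 2 without day 0 (Ciart and Cry2), and 0 without day 3, without day 5 and with no day term. Of all genes, 2640 of 12920, 890 of 12984, 685 of 12943 and 797 of 13324 passed there, in that order, against 2575 of 13324 in the main fit. For Per2KO the count of members was 1 without day 3 and 0 without day 5, with no day term and with only the 6 libraries compared. Of all genes, 807 of 12984, 753 of 12943, 825 of 13324 and 1229 of 13034 passed there, against 2652 of 13324 in the main fit. On day 3 against day 0 the main count of 1 member became 5 without WT and 0 without Per1KO or without Per2KO. Of all genes, 7479 of 12905, 1091 of 13034 and 1381 of 13021 passed there, against 4664 of 13324 in the main fit. On day 5 against day 0 the main count of 3 members became 6 without WT, 0 without Per1KO, 1 without Per2KO and 4 with DESeq2, which added Per3 (0.72, adjusted p-value 0.0397). Of all genes, 8341 of 12905, 2259 of 13034, 2895 of 13021 and 6574 of 13324 passed there, against 6149 of 13324 in the main fit. For the interaction, 0 in the main test, the count of members was 1 in Per1KO without a filter on low counts, and in Per2KO 2 with DESeq2 and 2 without that filter. Of all genes, 315 of 26159, 476 of 13324 and 567 of 26159 passed there, in that order. The cause of these shifts was not tested, and the fits that leave some libraries out also have fewer libraries.

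Values that changed sign were small or rested on 1 day or population, and none was called in either fit. Against WT, Per3 in Per1KO became 0.13 without day 0 and Ciart in Per2KO became 0.13 without day 5. Between the knockouts without day 0, Ciart became 0.23, Per1 -0.049 and Cry2 0.13. Cry2 there also became 0.0052 with only the 6 libraries compared and 0.026 with no day term. Ciart became 0.084 on day 5 against day 0 without Per2KO. On day 5 against day 3, Ciart became -0.0054 with no filter and -0.58 without WT, and Per1 became 0.019 without Per1KO. A prior count of 0.5 in place of 2 reversed no single-day difference. With candidates down to 1 CPM, the gene nearest to Per2 was Elmo3 (0.177) and that nearest to Ciart was Amz1 (0.289).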

Other observations

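Lists of genes that answer to signals known to act on Per1 gave values not described above. Of 8 serum-induced immediate-early genes, 3 passed against WT in each knockout by edgeR (19.3% and 19.9% of all genes did), all lower: Egr2 (-1.58 and -1.82), Ier2 (-1.32 and -1.32) and Junb (-0.90 and -0.97). Of 8 CREB and cAMP targets, Nr4a1, encoding an orphan nuclear receptor, was lower in both (-0.89 and -1.13) and Nr4a2 in Per2KO (-0.98). Of 8 glucocorticoid receptor targets, 7 were tested and 1 passed in each knockout, Tsc22d3, which encodes the protein GILZ, at -0.67 and -0.61. The medians of these lists, in the order given, were -0.64, -0.56 and -0.39 in Per1KO and -0.67, -0.37 and -0.61 in Per2KO. In the same order, 2, 1 and 3 genes had positive values in each knockout, none of which passed. Among them were the immediate-early gene Fos (1.05 and 0.81, edgeR adjusted p-values 0.112 and 0.200) and the glucocorticoid target Dusp1 (0.87 and 0.93, 0.0842 and 0.07095).

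Between day 5 and day 0 these lists held calls in both directions, where 46.1% of all genes passed by edgeR (23.2% higher, 22.9% lower). Of 8 CREB and cAMP targets, 3 rose and 1 fell. Of 7 glucocorticoid targets tested, 1 rose and 2 fell, and of 8 immediate-early genes 1 rose and 1 fell. The CREB targets Sik1, a kinase, and Nr4a3 and Nr4a1 rose by 1.94, 2.13 and 1.26, while Nr4a2 fell by 2.02. Among glucocorticoid targets Tsc22d3 rose by 1.21, while Errfi1, an inhibitor of EGF receptor signalling, fell by 1.29 and Fkbp5 by 0.97. Of the immediate-early genes, Egr2 rose by 0.86 and Fosb fell by 2.44.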
